A study of Mus musculus with 8 samples.

Results

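Nr1d1, Nr1d2 and Rora encode REV-ERBα, REV-ERBβ and RORα, nuclear receptors of the circadian clock, and their RNA polymerase II (Pol II) ChIA-PET signal in mouse liver is described here. The 3 genes were taken by name from 21887 protein-coding genes. ChIA-PET pulls down crosslinked chromatin with an antibody, ligates DNA ends of the same complex to a linker, and reads a short tag of either end. Each pair of tags is a PET (paired-end tag), and each of its 2 ends marks a position in the genome. The ends thus give both a Pol II enrichment profile and a list of DNA segments that were joined.

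The REV-ERB receptors repress transcription. They bind a DNA element called RORE and recruit the co-repressor NCoR with the histone deacetylase HDAC3. The ROR receptors activate transcription from the same element, so that the families compete at clock genes such as Arntl, which encodes BMAL1. In liver the REV-ERB receptors are known for restraining genes of lipid and glucose metabolism, and their own transcription is driven by BMAL1 and CLOCK.

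All mice were wild-type C57BL/6, 3 to 6 months old, in 12 h of light and 12 h of dark with food freely available, and livers were taken at ZT06 or ZT18, hours after lights on. Chromatin of 3 to 7 livers was pooled per immunoprecipitation with the Pol II antibody 8WG16. The 8 libraries, 4 at each time, belong to 3 experiments: JM08 (4 libraries) and JM12 (2 libraries) were crosslinked with 1.5 mM EGS and 1% formaldehyde, called dual crosslinking, and JM11 (2 libraries) with 1% formaldehyde alone. EGS joins proteins across a longer span than formaldehyde. The deposited table names the experiment and linker of each PET but no library or time, so each experiment is 1 pool without replicates, and day and night were not compared. For the same reason no spread between livers could be given, and every interval below is a 95% interval of counting error only. Intervals on ends take each end as independent. A PET with both ends in a window adds 2 ends, so these intervals are too narrow there. Nr1d1 in JM08, for example, held 60 ends from 48 PETs.

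JM08 held 474466, JM11 1438852 and JM12 837971 PETs with both ends on nuclear chromosomes. The measure used is relative density: the ends per kb over a gene and 2.5 kb either side, divided by the mean over nuclear 10 kb bins of the same experiment. Of 6 hepatocyte marker genes, 6, 5 and 6 were at 2 or more in JM08, JM11 and JM12. The lists of 4 genes each for Kupffer, endothelial, stellate and bile duct cells had at most 1 gene each at 2 or more in any pool, where 25.2%, 4.91% and 21.1% of all protein-coding genes were, and summed relative densities from 4.15 (Kupffer, JM12) to 9.82 (cholangiocyte, JM08), with no marker at 0 and Sox9, a bile duct marker, the highest at 5.26 in JM08. The 4 marker genes of other tissues summed to 2.94, 4.51 and 3.80, with none at 2. In whole liver, a larger share of cells with Pol II at a gene and more Pol II per cell cannot be told apart.

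Nr1d1 lies at chr11:98767932-98775377 on the minus strand (GRCm38.p6, gene ID 217166). Nr1d2 lies at chr14:18204056-18239106 on the minus strand (gene ID 353187). Rora is far longer, 735 kb at chr9:68653404-69388246 on the plus strand (gene ID 19883), and has 3 curated coding transcripts in the RefSeq table. The 250 bases before the RefSeq start of both REV-ERB genes are shown because both genes were densest in PET ends inside the gene within 2.5 kb of them. They come from RefSeq promoters of GRCm38.p6, read 5′ to 3′ on the gene's strand. All 3 genes matched that table. The Rora window is not shown because it lies inside the annotated gene.

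Nr1d1 (chr11:98775378-98775627): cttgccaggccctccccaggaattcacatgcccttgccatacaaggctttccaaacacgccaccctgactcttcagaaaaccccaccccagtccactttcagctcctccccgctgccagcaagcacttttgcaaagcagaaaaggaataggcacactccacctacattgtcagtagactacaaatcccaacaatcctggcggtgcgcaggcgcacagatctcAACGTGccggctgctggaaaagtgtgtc
Nr1d2 (chr14:18239107-18239356): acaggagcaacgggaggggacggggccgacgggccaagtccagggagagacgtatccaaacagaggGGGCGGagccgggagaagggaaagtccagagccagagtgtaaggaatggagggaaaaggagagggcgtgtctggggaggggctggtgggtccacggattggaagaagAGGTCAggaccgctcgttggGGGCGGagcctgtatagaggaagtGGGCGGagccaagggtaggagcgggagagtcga

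The capitals mark every match on either strand to 4 short motifs: the E-box CACGTG, bound by BMAL1 and CLOCK, its variant CACGTT, the nuclear receptor half-site AGGTCA, which forms the core of a RORE, and the GC box GGGCGG. Nr1d1 had 1 match, to CACGTT on the opposite strand, 28 to 23 bases before the start. Nr1d2 had 1 AGGTCA, 77 to 72 bases before the start, and 3 GGGCGG, the nearest 33 to 28 bases before it. No marked matches overlapped one another. Among 32851 promoters of that length, CACGTG was found in 6.02%, CACGTT in 3.85%, AGGTCA in 14.0% and GGGCGG in 32.7%. A match describes the letters only. In the window from 250 bases before to 50 after the start, Nr1d1 had 0, 1 and 1 PET ends in JM08, JM11 and JM12, and Nr1d2 had 0, 0 and 1.

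Nr1d1 was the densest of the 3 genes in every experiment. It held 60 ends in JM08, 24 in JM11 and 36 in JM12. Its relative density was 12.7 in JM08 (9.71 to 16.4), 1.68 in JM11 (1.08 to 2.5) and 4.32 in JM12 (3.03 to 5.99), and these intervals did not overlap. JM08 was the highest and JM11, the formaldehyde pool, the lowest. The share of protein-coding genes with a lower value was 98.4%, 90.8% and 97.0%. A relative density of 2 or more was reached by Nr1d1 in JM08, with 25.2% of genes, and in JM12, with 21.1%, but not in JM11, where 4.91% reached it. None of the 3 receptor genes reached 2 in all 3 pools, as 4.24% of genes did. This call depends on the flank: with 1 kb either side, Nr1d1 stood at 14.5, 2.12 and 4.59, above 2 in each pool. From PETs between chromosomes alone, Nr1d1 stood at 9.58 in JM08 and 2.55 in JM12.

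Nr1d2, the second REV-ERB gene, stayed near the nuclear mean over its whole span. It held 17, 33 and 36 ends, or relative densities of 1.12 in JM08 (0.653 to 1.79), 0.717 in JM11 (0.494 to 1.01) and 1.34 in JM12 (0.941 to 1.86). All 3 intervals included 1 and each overlapped the others. In JM11 only 19.1% of protein-coding genes were lower, against 50.1% in JM08 and 52.5% in JM12.

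Rora, the activator gene, held 282, 1024 and 641 ends. Its relative density was 1.01 in JM08 (0.892 to 1.13), 1.21 in JM11 (1.13 to 1.28) and 1.30 in JM12 (1.20 to 1.4). The JM08 interval ended just below the start of the JM11 interval, and the JM11 and JM12 intervals overlapped. The median protein-coding gene stood at 1.12, 1.10 and 1.30, and relative to that median Rora in JM12 was 0.993. Its many ends make these the narrowest intervals of the 3 genes.

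The order of the levels differed between the pools. In JM08 and JM12, Nr1d1 stood above the other two without overlap of intervals, and Nr1d2 and Rora overlapped. In JM11, Nr1d1 overlapped Rora, and Rora stood above Nr1d2 without overlap.

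**Figure D1:**
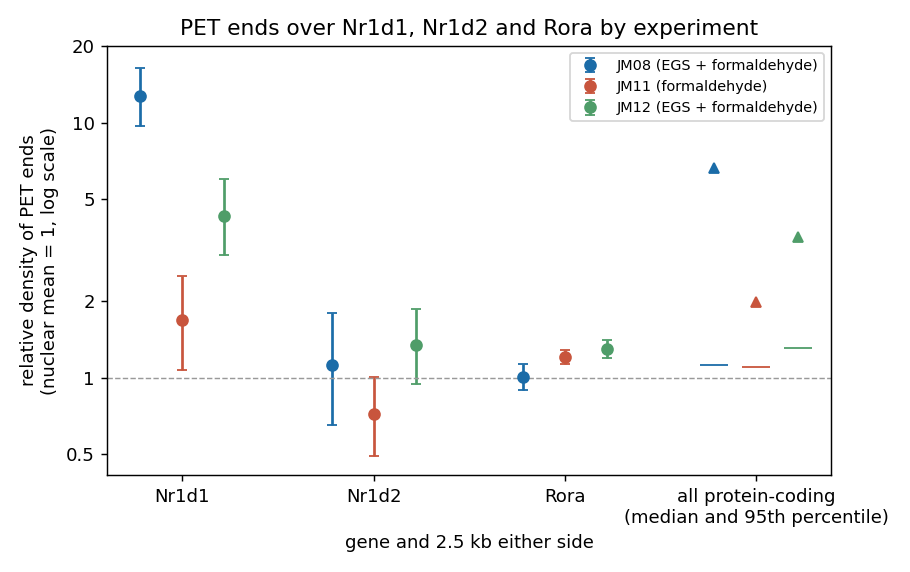
Relative density of PET ends (vertical log axis, nuclear mean 1) over each gene and 2.5 kb either side, by experiment. Points with bars are values with exact 95% Poisson intervals, and at the right the dashes are the median and the triangles the 95th percentile of protein-coding genes. Nr1d1 lies above that percentile in JM08 and JM12, while Nr1d2 and Rora lie between 0.717 and 1.34.

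Within Nr1d1, the ends gathered just inside the start of the gene. The first 2.5 kb held 31 of 60 ends in JM08, 12 of 24 in JM11 and 16 of 36 in JM12, a relative density of 32.7 (22.2 to 46.5), 4.18 (2.16 to 7.30) and 9.57 (5.47 to 15.5). The 2.5 kb before the start held 3, 2 and 6 ends, or 3.17, 0.697 and 3.59. The intervals before the start were 0.653 to 9.26, 0.0844 to 2.52 and 1.32 to 7.81. In each pool the side inside the gene was the denser by value, with intervals apart in JM08 but overlapping in JM11 and JM12. Around the start as a whole, within 2.5 kb, the relative density was 17.95, 2.44 and 6.58, and around the other end of the gene it was 10.0, 1.57 and 2.69. Over 17492 genes the median start was itself above 1, at 1.58, 1.22 and 1.79. Lower than the Nr1d1 start were 97.3%, 85.5% and 94.6% of genes.

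Thra, which encodes thyroid hormone receptor α, overlaps the end of Nr1d1 by 1.07 kb, and ends there cannot be given to 1 gene. That overlap held 2, 1 and 1 ends. With the 2.5 kb flank, the Nr1d1 window shares 3.575 kb with Thra, and this held 16 of 60, 6 of 24 and 5 of 36 ends, or 11.8 (6.76 to 19.2), 1.46 (0.536 to 3.18) and 2.09 (0.679 to 4.88). In JM08 most of these, 14 ends at 14.8 (8.08 to 24.8), lay past the end of Nr1d1 and inside Thra. Thra with its own 2.5 kb flanks stood at 2.70 in JM08 (1.87 to 3.78), 0.891 in JM11 and 1.71 in JM12. The rest of Nr1d1 stood at 17.0 in JM08 (12.2 to 23.1), 2.19 in JM11 (1.25 to 3.55) and 5.87 in JM12 (3.80 to 8.66). Thra with its flank, outside the Nr1d1 window, stood at 1.36 (0.744 to 2.28), 0.802 (0.519 to 1.18) and 1.43 (0.935 to 2.10). So the part of Nr1d1 that Thra does not share was the denser in every pool, with intervals apart in all 3. In JM11 they were apart only narrowly, with Nr1d1 from 1.25 and Thra up to 1.18. This comparison leaves out the dense stretch at the end of Thra next to Nr1d1.

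On the other side, the long noncoding RNA gene Gm31862 begins 34 bp from the start of Nr1d1. Its part outside the Nr1d1 window stood at 3.16, 1.64 and 2.04. Between Gm31862 and the next protein-coding gene, Msl1, which encodes a subunit of a histone acetyltransferase complex, no gene is annotated. The stretch 10 to 12 kb upstream of Nr1d1 lies there and held 14, 4 and 9 ends, or 18.5 (10.1 to 31.0), 1.74 (0.475 to 4.46) and 6.73 (3.08 to 12.8). Inside Msl1, 19 to 21 kb upstream of Nr1d1, there were 24, 9 and 21 ends, or 31.7, 3.92 and 15.7. In JM11 the highest 1 kb bin of the profile lay 8 to 9 kb upstream, with 9 ends at 7.84, where JM08 and JM12 held 0. Both stretches and this bin were picked from the profile after its values were seen, and are descriptions. Msl1 as a whole stood at 9.14, 1.35 and 4.63.

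**Figure D2:**
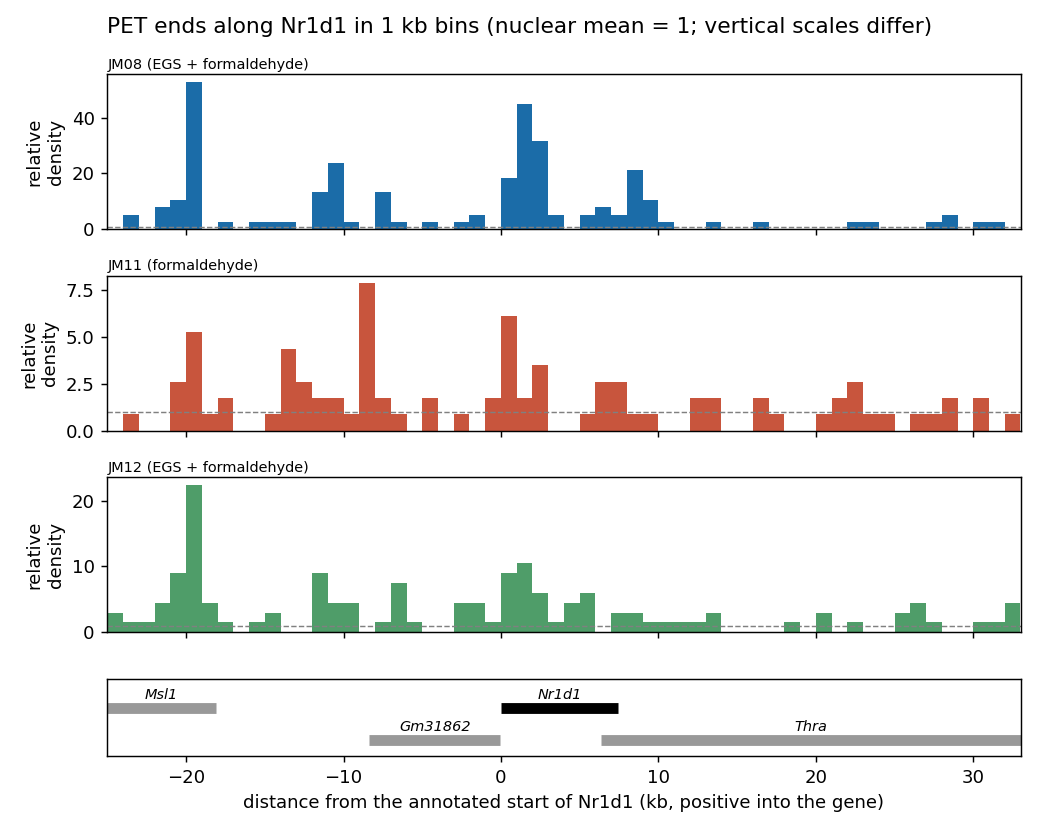
Relative density of PET ends in 1 kb bins (vertical axes, nuclear mean 1 as a dashed line) against distance from the annotated start of Nr1d1 in kb, positive into the gene, for the 3 experiments, with gene spans below. In JM08 and JM12 ends gather inside the first 3 kb of Nr1d1, 10 to 12 kb upstream and inside Msl1. JM11 is flatter, and its highest bin lies 8 to 9 kb upstream.

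Nr1d2 had its densest kilobase at the start of the gene in all 3 pools, with 8, 4 and 5 ends. Within 2.5 kb of the start the relative density was 6.34 in JM08 (3.27 to 11.1), 1.92 in JM11 (0.956 to 3.43) and 3.29 in JM12 (1.64 to 5.88). The body, beyond 2.5 kb of either end, stood at 0.439 (0.143 to 1.03), 0.522 (0.309 to 0.824) and 1.04 (0.647 to 1.60). The start was above the body in every pool, with intervals apart in each. In JM12 they were apart only narrowly, with the start from 1.64 and the body up to 1.60. In JM08 and JM12 the body interval included 1, and in JM11 the start interval did.

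No annotated gene overlaps the Nr1d2 window. The nearest protein-coding gene upstream is Rpl15, which encodes a ribosomal protein, 28.7 kb away. It stood at 8.73, 3.20 and 2.75, above Nr1d2 in each pool. The 2.5 kb bin at the start of Rpl15 held 24, 20 and 12 ends, and it too was picked after its values were seen. The near edge of another protein-coding gene, Nkiras1, lies 32.0 kb upstream of Nr1d2, inside this bin and the Rpl15 window. Ends there cannot be given to 1 gene. Nkiras1 stood at 5.32, 1.66 and 1.34. On the other side lies Thrb, the gene of thyroid hormone receptor β, 164 kb away, at 1.04, 0.846 and 1.23. Each REV-ERB gene therefore has a thyroid hormone receptor gene as its next protein-coding neighbour on its 3′ side.

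**Figure D3:**
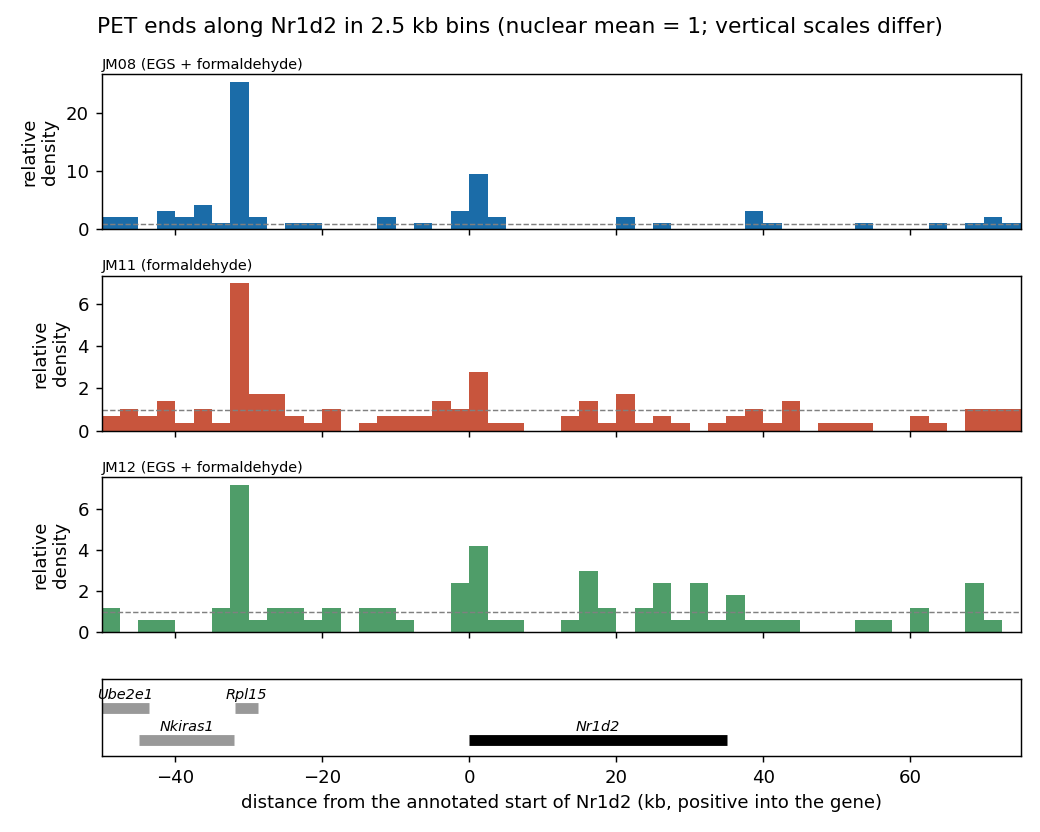
Relative density of PET ends in 2.5 kb bins (vertical axes, nuclear mean 1 as a dashed line) against distance from the annotated start of Nr1d2 in kb, positive into the gene, for the 3 experiments, with gene spans below. The bin just inside the start of Nr1d2 stands out from the gene's body. The bin at the start of Rpl15, which also covers the edge of Nkiras1, is higher in each experiment.

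At the annotated start of Rora the relative density was close to 1 in JM08 and higher in JM12. Within 2.5 kb of it were 2, 8 and 11 ends, or 1.06 (0.128 to 3.81), 1.39 (0.601 to 2.74) and 3.29 (1.64 to 5.88). The intervals of JM08 and JM11 included 1, and each pool's interval overlapped that of the Nr1d2 start. Over the 3 pools summed, the Rora start stood at 1.91 within 2.5 kb and at 0.910 within 1 kb. With 2 ends in JM08, an enrichment there could be missed. Over 17492 genes the median start stood at 1.58, 1.22 and 1.79. Lower than the Rora start were 33.1%, 54.4% and 75.1% of genes, and lower than the Nr1d2 start 80.7%, 74.9% and 75.1%. The body, which makes up 98.6% of the window's length, held 98.9%, 98.6% and 97.7% of the ends, close to its share of the length. Long noncoding RNA genes overlap it, the longest being Gm31262 over 101 kb, where the relative density was 0.735, 1.19 and 1.29.

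The densest kilobase of Rora lay deep in the gene, 636 to 637 kb from its start, at chr9:69289404-69290403. It held 22 ends in JM08, 10 in JM11 and 12 in JM12, and it was the densest of the gene's 735 kilobases in each pool taken alone. The median kilobase held 0, 1 and 1 ends. Its relative density was 58.1 in JM08 (36.4 to 88.0), 8.71 in JM11 (4.18 to 16.0) and 17.9 in JM12 (9.27 to 31.3). As the highest of 735 values, picked after they were seen, it is a description with no test. Counting distinct positions only left 16, 10 and 12 ends, and 42.2 in JM08. It held 7.80%, 0.977% and 1.87% of the Rora ends. Both linkers contributed in each pool, with at least 4 ends each. Of its 36 PETs, 11 had both ends within 8 kb and 25 joined another chromosome. Rora is known to have isoforms with different starts, and the positions of those starts were not used here.

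**Figure D4:**
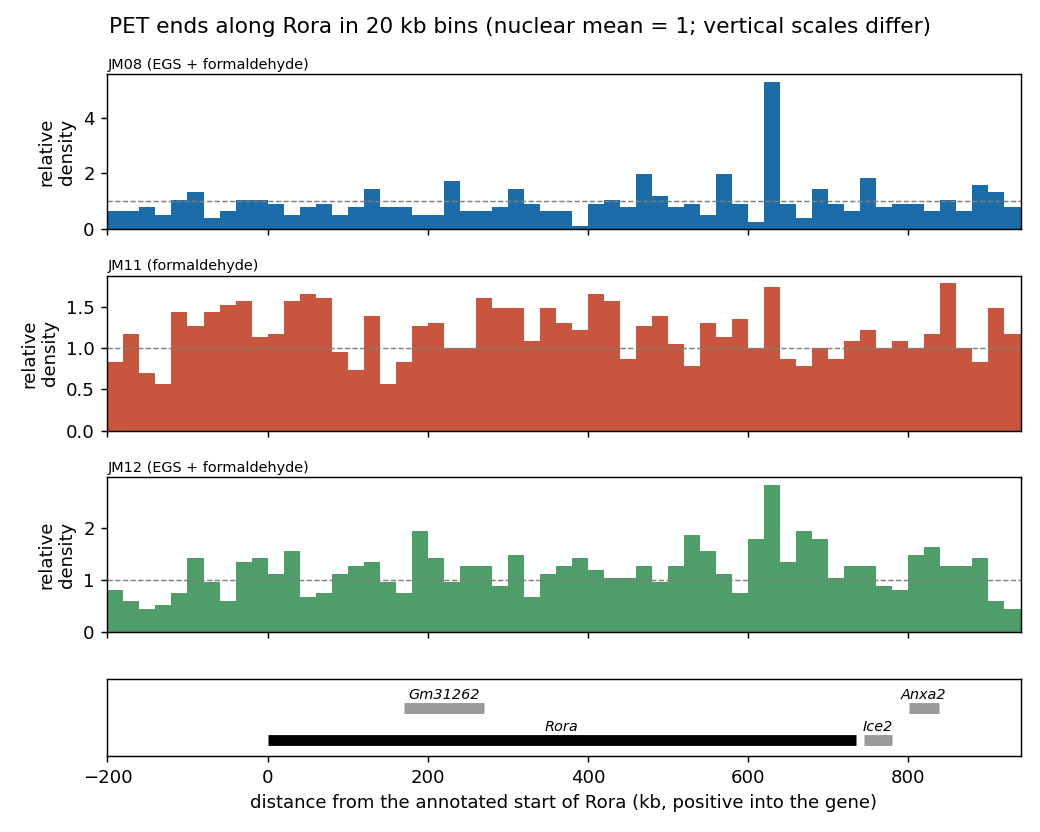
Relative density of PET ends in 20 kb bins (vertical axes, nuclear mean 1 as a dashed line) against distance from the annotated start of Rora in kb, positive into the gene, for the 3 experiments, with gene spans below. The bin that holds the kilobase at 636 kb is the highest within the gene in each experiment, and most other bins lie near 1.

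The 3 genes differed in how the dual pools compared with the formaldehyde pool. For Nr1d1 the ratio of relative densities was 7.58 for JM08 over JM11 (4.65 to 12.7) and 2.58 for JM12 over JM11 (1.49 to 4.51). For Nr1d2 it was 1.56 (0.816 to 2.89) and 1.87 (1.14 to 3.10), so the second interval lay above 1. With a 1 kb flank this second ratio was 2.09. For Rora it was 0.835 (0.729 to 0.954) and 1.07 (0.972 to 1.19). The median over protein-coding genes with at least 20 ends in the pair was 1.21 and 1.28. By these values Nr1d1 was 2-fold or more higher in each dual pool, as were 26.9% of genes for JM08 and 15.4% for JM12. Its JM12 interval reached below 2, and the share of genes 2-fold higher in both pools was not computed. None of the 3 was 2-fold or more lower, as were 4.45% of genes for JM08 and 1.23% for JM12. From PETs between chromosomes alone the ratio of JM12 to JM11 for Nr1d1 was 1.79, under 2-fold. In the ATGT linker subset its relative density was 3.28 in JM12 and 3.36 in JM11. Both ratios share the JM11 pool. The dual pools also differed from each other: Nr1d1 was 2.94 times as dense in JM08 as in JM12 (1.92 to 4.58), a 2-fold or larger excess found for 11.0% of genes. With 2 pools against 1, the smallest two-sided p of an exact permutation test is 0.333, and crosslinking and experiment cannot be told apart.

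Each pool splits into 2 linker subsets, ATGT and TAAG, whose link to libraries or times was not given in the sources used here. In JM11, Nr1d1 stood at 3.36 in ATGT (11 ends) and 1.18 in TAAG (13 ends), a ratio of 2.85 (1.16 to 6.89). In JM08 that ratio was 1.03 (0.591 to 1.77) and in JM12 it was 0.623 (0.290 to 1.28). Of 9 such ratios, for 3 genes in 3 pools, the JM11 value of Nr1d1 was the 1 whose interval left out 1. The subsets are not groups of the study, so this is a value only.

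Contacts were counted as PETs with 1 end over a gene window and the other on the same chromosome, 8 kb to 1 Mb away. Nr1d1 had 0 in 96 PETs, a share of up to 3.125% if a 0 allows up to 3 counts, with an exact interval up to 3.77%. Nr1d2 had 0 in 78, with limits of 3.85% and 4.62% by the same rules. Among all PETs touching a protein-coding gene the share was 0.253%, below these limits. At this depth, neither 0 count sets its gene apart from that share. Rora had 3 contacts in 1825 PETs, or 0.164% (0.0339 to 0.480%). At least 1 contact was found for 24.5% of protein-coding genes.

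None of the Rora contacts reached another protein-coding gene. The shortest, in JM11, joined points 341 kb and 352 kb from the start of Rora. Another, in JM12, joined points 211 kb and 390 kb from the start, the first of them also inside the noncoding gene Gm31262. The longest, also in JM12, spanned 411 kb from 308 kb inside Rora to a point 103 kb upstream, where no gene is annotated and Rora is the nearest protein-coding gene. None of them touched the densest kilobase, and each was a single PET.

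Beyond 1 Mb, Nr1d1 had 4 PETs, at distances from 1.86 to 46.9 Mb. For 2 of them the near end lay in Nr1d1 itself, for 1 in Thra and for 1 in Gm31862, both within the window. The PET with a far end in Zfp385c started in Nr1d1, and the PET with a far end in Hrob started in Thra. The other two far ends lay in no annotated gene. Nr1d2 had 4, all over 29.0 Mb away, with far ends in Socs4, Cpb2, Gpc5 and Clybl. Rora had 92 such PETs, and the median distance over its 95 PETs beyond 8 kb was 31.8 Mb.

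Most PETs of each gene joined another chromosome: 70.8% for Nr1d1 (60.7 to 79.7%), 84.6% for Nr1d2 (74.7 to 91.8%) and 88.2% for Rora (86.7 to 89.7%), against 85.0% of all PETs touching a gene. These sums mix pools in different proportions. By pool, Nr1d1 had 68.75% in JM08 (53.7 to 81.3%), 85.7% in JM11 (63.7 to 97.0%) and 63.0% in JM12 (42.4 to 80.6%), against 75.1%, 89.7% and 82.9%, and the JM12 interval alone left out that value. PETs with ends within 8 kb of each other made up the larger share at Nr1d1: 25% (16.7 to 34.9%), against 9.91% of all PETs touching a gene. At Nr1d2 they were 10.3% (4.53 to 19.2%) and at Rora 6.58% (5.48 to 7.81%). By pool, Nr1d1 had 25% in JM08, 14.3% in JM11 and 33.3% in JM12, against 20.4%, 5.12% and 11.9% of all PETs touching a gene. For Nr1d1 in single pools, the JM12 interval, 16.5 to 54.0%, left out the value of all genes, and those of JM08 and JM11 included it. The Rora share lay below that of all genes in each pool, at 13.3% (9.30 to 18.1%), 3.44% (2.39 to 4.77%) and 9.03% (6.84 to 11.6%).

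The pathway around the receptors was read from a list of 25 genes in 5 roles, all found in the gene table. The list was chosen with earlier results of these data known, so its counts are descriptions. At 2 or more were 15 in JM08, 9 in JM11 and 15 in JM12, beside 25.2%, 4.91% and 21.1% of all protein-coding genes. The list's median was 3.44, 1.44 and 2.56, beside 1.12, 1.10 and 1.30 over all protein-coding genes.

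Rorb, which encodes the receptor RORβ of the same family as RORα, stood at 1.11 in JM08, 1.49 in JM11 and 1.18 in JM12, under 2 in each pool.

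Of the 6 co-repressor genes, 2, 1 and 2 reached 2, beside 25.2%, 4.91% and 21.1% of all genes, so the counts in JM08 and JM12 are close to that background. Gps2 and Hdac3 were the highest over all pools summed, and Hdac3, the deacetylase that REV-ERB recruits, stood at 3.44, 2.15 and 3.24. Gps2, a subunit of the same complex, stood at 9.48, 1.08 and 1.85, on 10 ends each in JM11 and JM12. The lowest over that sum were Tbl1x at 0.751, 0.512 and 0.756 and Tbl1xr1 at 0.763, 0.977 and 1.43, both genes of WD-repeat subunits. Ncor1, the gene of NCoR itself, stood at 1.31, 1.14 and 1.24.

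Of the 5 clock genes with RORE elements, only 1 reached 2 in each pool, beside 25.2%, 4.91% and 21.1% of all genes. This gene was Nfil3, at 4.60, 2.02 and 2.82. It encodes a repressor that binds D-box elements. Arntl, the best known target of both receptor families, was next over the 3 pools summed, with 1.41, 1.06 and 1.66. The lowest over that sum were Clock at 1.02, 0.934 and 0.905 and Npas2, which encodes a partner of BMAL1 like Clock does, at 0.893, 1.09 and 1.33.

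The 6 E-box genes are driven by BMAL1 and CLOCK, as the REV-ERB genes are. Of these 6, 5, 4 and 6 reached 2 in JM08, JM11 and JM12, beside 25.2%, 4.91% and 21.1% of all genes. Dbp, which encodes a D-box activator, stood at 40.2, 4.65 and 7.55, and Bhlhe40, which encodes the repressor DEC1, at 33.9, 4.93 and 6.35. Both were above Nr1d1 in every pool by value. In JM12 they held 51 and 48 ends, and no intervals were computed for them, so a separation beyond counting error is not shown. The lowest over the 3 pools summed were Cry2 at 1.42, 1.33 and 2.49 and Per1 at 3.46, 2.02 and 2.56, both genes of clock repressors.

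Of the 7 liver genes under REV-ERB control, 7, 3 and 6 reached 2, beside 25.2%, 4.91% and 21.1% of all genes. Pck1, a gluconeogenic enzyme gene, stood at 99.2, 20.4 and 7.87, and G6pc, the gene of the last enzyme of glucose release, at 38.2, 5.68 and 6.20. The lowest over the 3 pools summed were Plin2, the gene of a lipid droplet protein, at 4.05, 0.613 and 1.61 and Elovl5, a fatty acid elongase gene, at 2.05, 0.929 and 3.00.

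**Figure D5:**
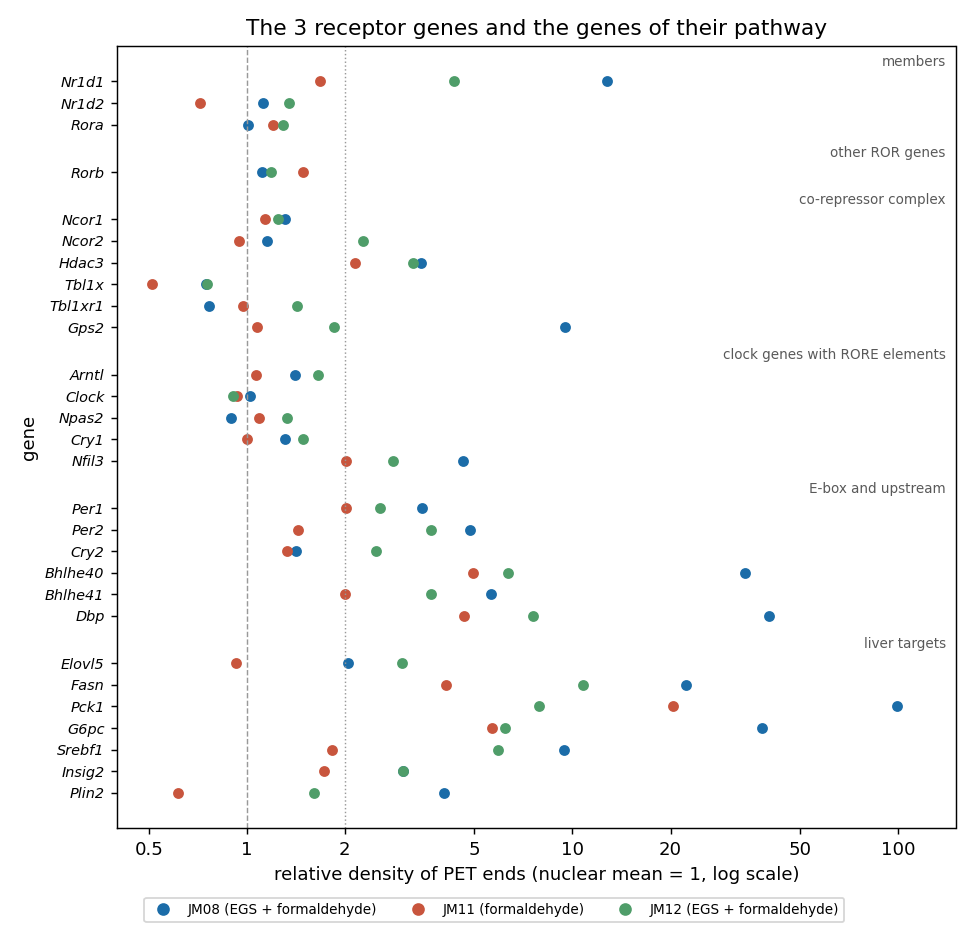
Relative density of PET ends (horizontal log axis, nuclear mean 1, with lines at 1 and 2) for the 3 receptor genes and 25 pathway genes by role, 1 point per experiment. Nr1d1 lies among the E-box genes and liver targets in the dual pools, and Rora lies near Rorb, Arntl, Clock and Npas2, as does Nr1d2 except in JM11, where at 0.717 it lies below all of these.

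The genes most like each receptor gene were those at the smallest Euclidean distance of log2 relative density over the 6 experiment and linker subsets, among genes with at least 50 ends and a window within 2 times the length. For Nr1d1 they were Fads3 (0.655), Cdk10 (0.668) and Rnf103 (0.673), against a median distance of 3.53 over 4025 genes. For Nr1d2 they were Abraxas1 (0.298), Gfod2 (0.336) and Fbxo42 (0.374), against 1.71 over 7340 genes. For Rora they were Asic2 (0.163), Ttc28 (0.214) and Dab1 (0.216), against 0.667 over 394 genes.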

How the data were processed

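The authors deposited 1 table of PETs (experiment, linker, and the chromosome and position of each end, per the file's values), with no library or time column. The submitters' processing notes name Bowtie2 and mm10, without version or role. Duplicate removal and mapping filters were not given in the sources used here. Genes came from the RefSeq table of GRCm38.p6. Shifting gene ends by 5 kb lowered the PET ends within 2.5 kb of them to 0.675 of their number.

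PETs with a mitochondrial end were set aside. The remaining ends were counted over each gene and 2.5 kb either side and divided by the mean over 250577 bins of 10 kb that held an end in any experiment. Intervals are exact 95% Poisson (density), Clopper-Pearson (shares) or conditional binomial (ratios) and cover counting error only, since PCR copies are not independent molecules. Where ends were counted, the intervals also take both ends of a PET as independent. A count of 0 allows up to 3 counts. The counting and ratio steps were tested on simulated ends. The tools were Python 3.11.15, NumPy 2.4.6, pandas 2.3.3 and SciPy 1.17.1.

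No test was run, since each experiment is 1 pool. The members and gene lists were chosen with earlier results of these data known, and 1 gene of the pathway list is not reported here. Genes named are the members, their neighbours, the genes at contact ends, the highest and lowest 2 pathway genes per role by the sum of the pools, and the 3 genes most alike. The following were added after values were seen: the densest kilobase, the stretches upstream, the parts of neighbouring genes, the ratio of JM08 to JM12, the linker ratios, the shares of PETs by class, the motifs, and Ncor1 and Sox9 by name. Alternatives changed the flank, duplicates, PET classes, unit and distance limits.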

Additional observations from a re-analysis of the deposited data

How the results depend on the processing

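For 30 results, 141 alternative values were computed. Of these, 127 moved by no more than counting error (for counts, by no more than 1.5 times), 12 moved further, and 2 went from above 1, with an interval that left out 1, to below 1. These 2 were Rora in JM12 with the median gene as the unit and the start of Rora within 1 kb. Among the others, 7 crossed 1 where the interval included it. Crossings of 2 were not counted. With a 1 kb flank, Nr1d1 in JM11 became 2.12 and the ratio of JM12 to JM11 for Nr1d2 became 2.09. From PETs between chromosomes alone, that ratio for Nr1d1 became 1.79. The relative density of Nr1d1 in JM08, 12.7, became 9.38 with a 5 kb flank and 9.58 from PETs between chromosomes alone, which also gave 2.55 in JM12. With the median protein-coding gene as the unit, Rora became 1.09 in JM11 and 0.993 in JM12, and its ratio of JM12 to JM11 became 0.907. A 2 Mb maximum gave Nr1d1 1 contact and Rora 5. Rora also had 5 contacts with a 4 kb minimum, 1 with a 100 kb maximum and 1 without experiment JM12. Within 1 kb of the start, in place of 2.5 kb, Nr1d2 became 4.78 and Rora 0.910 over the 3 pools. At 3 times the nuclear mean, 5 pathway genes reached the limit in JM11, against 9 at 2 times. Apart from settings whose construction changes the window, unit or limit, the cause was not tested. The alternative for the densest kilobase of Rora, distinct positions only, was chosen after seeing the data. Depth limits the contacts of Nr1d1 and Nr1d2, with 96 and 78 PETs. No paired analysis was possible because no column names a library or a replicate.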

Other observations

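Some PETs between chromosomes joined the receptor genes to genes of the pathway and marker lists, counts given with no background value. Nr1d1 had 1 such PET of 68, with its far end over Alb, the albumin gene, in JM08. Nr1d2 had 0 of 66. Rora had 5 of 1610, 1 each with Apoa2, Kdr, Arntl, Clec4g and Ncor1. Far ends of these PETs lay over protein-coding gene windows in 63.2% of cases for Nr1d1 (50.7 to 74.6%), 54.5% for Nr1d2 (41.8 to 66.9%) and 50.8% for Rora (48.3 to 53.3%), against 49.9% of all ends of PETs between chromosomes. These sums mix pools in different proportions: by pool, Nr1d1 had 63.6% in JM08 (45.1 to 79.6%), 61.1% in JM11 (35.7 to 82.7%) and 64.7% in JM12 (38.3 to 85.8%), and each interval included the value of all such ends, 51.7%, 47.8% and 53.1%.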
